A study of Homo sapiens with 20 samples.

Results

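Integrins and cadherins are the main receptor families by which cells hold to the extracellular matrix and to each other. They were followed here in Mel202, a GNAQ-mutant human uveal melanoma cell line, after exposure to retinoids. A gene was taken as a member if its symbol was ITGA or ITGB with a number or with V, L, M, X, E, D or 2B, or CDH with a number only and other than the epithelial cadherin, or began with PCDH. Of the genes with a named probe on the array, 40 carried such a symbol. Of these, 26 were detected (detection p under 0.01 on at least 3 of the 20 arrays) and were tested among 10673 genes in all. They comprised 9 of 11 integrin alpha chains, 3 of 3 integrin beta chains, 5 of 8 classical and related cadherins, 6 of 12 clustered protocadherins and 3 of 6 other protocadherins.

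An integrin is a dimer of an alpha and a beta chain, and the pair decides which matrix protein or cell surface ligand is bound. Inside the cell, talin, kindlins, paxillin and other adaptors tie the beta chain to the actin cytoskeleton at focal adhesions. Classical cadherins bind the same or a related cadherin on the neighbouring cell in the presence of calcium and are linked to actin by catenins. Protocadherins form a large related group without the catenin-binding tail of classical cadherins. The clustered protocadherins are encoded in neighbouring tandem arrays of genes named alpha, beta and gamma, and neurons express varied combinations of them. In cells of the melanocyte lineage, integrins and cadherins take part in migration from the neural crest and in contact with neighbouring cells.

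Cells in their regular medium received 100 nM all-trans retinoic acid (ATRA), 100 nM 9-cis retinoic acid (9-cis RA) or ethanol (EtOH), the vehicle, for 24 or 48 h. ATRA and 9-cis RA are geometric isomers, which differ only in the configuration at a side-chain double bond. The retinoic acid receptors are bound by both, whereas the retinoid X receptors are bound by 9-cis RA. Arrays with the same number in their title were averaged, and a sample is named by its arrays (replicate 2-3 holds arrays 2 and 3), which gave 14 samples on 20 Illumina BeadChips. There were 2 EtOH samples (3 arrays), 3 ATRA samples (4 arrays) and 2 9-cis RA samples (3 arrays) at each time. All groups are of the same cell line, which stands for 1 tumour, and the labels do not say whether samples came from separate cultures. The p-values thus rest on the spread between the samples at hand, and this spread may be technical. Values are log2 of normalized intensity, and the level of one probe cannot be set against that of another.

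The arrays fell into 2 sets by the number of probes detected, 12 arrays with 15870 to 17128 and 8 arrays with 12561 to 14301. Both sets held every group, but replicate 4 of ATRA was measured in the second set alone at both times. On the second principal component over the tested genes (17.5% of the variance), 4 samples stood apart, namely both 9-cis RA 24 h samples (-16.6 and -17.9) and replicate 4 of ATRA at 24 and 48 h (-23.9 and -15.4), against -2.83 to 19.5 in the others. All results at 24 h of 9-cis RA and the comparison of the isomers at 24 h thus rest on a group whose samples all stood apart. With a term for these 4 samples, which was added after seeing the data and is estimated from the ATRA groups alone, 5 members were called at 24 h of 9-cis RA in place of 4. There CDH7 differed by -1.43 (adjusted p = 0.0430), PCDH20 by -1.66 (0.00253), PCDH7 by -0.84 (0.0111) and PCDHB2 by 1.04 (0.0390), and no member was called between the isomers. The fifth member called at 24 h of 9-cis RA was none of the 10 that were called against EtOH without this term. The EtOH samples lay close together at 24 h, where the median gap between both samples was 0.12 over the 26 genes and 0.13 over all genes. At 48 h these medians were 0.35 and 0.31, and CDH7 had the widest gap of the members (1.02). Of 8 melanocyte lineage markers, 6 had a named probe and all 6 were detected on this line, namely MLANA, PMEL, TYR, TYRP1, MITF and SOX10. Their summed level ranged from 15.59 to 15.60 with EtOH and 15.68 to 15.75 with retinoids at 24 h, and from 15.47 to 15.72 and 15.75 to 15.91 at 48 h. The sum hides changes of single genes. TYR rose in all 4 comparisons of a retinoid with EtOH (by 0.66 to 0.86) and MITF in both of ATRA (by 0.62 and 0.69). MLANA, PMEL, TYRP1 and SOX10 were called in none. Among markers of other cell types, 1 of 6 endothelial, 1 of 7 epithelial, 4 of 8 leukocyte and 3 of 6 fibroblast genes had a named probe. The rest of these lists could not be examined. Of those with a probe, the endothelial KDR, the fibroblast COL1A1 and the leukocyte CD14, LYZ and CORO1A were not detected. Of the leukocyte list only CD68 was tested, which rose in all 4 comparisons of a retinoid with EtOH (10.15 to 10.50 with EtOH and 11.13 to 11.76 with retinoids). The epithelial CLDN4 was called in none of these 4 comparisons and ranged from 4.57 to 5.95. The fibroblast list had DCN and LUM, whose summed level ranged from 9.09 to 9.79 with EtOH, from 9.74 to 10.08 with retinoids at 24 h and from 10.66 to 11.04 at 48 h. DCN was detected on 0 EtOH arrays and was at least 1.95-fold and 1.98-fold higher at 48 h of ATRA and 9-cis RA. LUM rose by 0.73 and 1.34 at 24 and 48 h of ATRA and by 1.49 at 48 h of 9-cis RA. The part of these genes in the results on adhesion genes was not tested.

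Both retinoids changed a minority of the adhesion genes, and the largest changes were in cadherin superfamily genes. A gene was called where limma's moderated test gave an adjusted p under 0.05 after Benjamini-Hochberg adjustment over all 10673 genes. At 24 h of ATRA, 2 members rose and 3 fell, so that 5 of 26 were called against 5.75% of all genes (3.29% higher and 2.46% lower). At 48 h of ATRA, 4 rose and 5 fell (34.6% of the members), and 17.4% of all genes were called (8.61% higher and 8.78% lower). At 24 h of 9-cis RA, 1 rose and 3 fell. This is 15.4% of the members, close to the 14.5% of all genes that were called (8.70% higher and 5.78% lower). At 48 h of 9-cis RA, 3 rose and 4 fell (26.9% of the members), and 11.0% of all genes were called (5.53% higher and 5.49% lower). The median difference over the members was -0.18, -0.09, -0.16 and 0.00 in these 4 comparisons, in that order, and that over all genes was -0.02, 0.00, 0.01 and -0.01. Over the 4 comparisons, 10 members (38.5%) were called at least once, against 26.0% of all genes. CDH7, PCDH20 and PCDH7 fell and PCDHB2 rose in all 4, which is 15.4% of the members against 3.49% of all genes. The members were chosen with earlier results of these data known. These shares therefore do not test whether adhesion genes changed more often than other genes. Single samples moved these counts. Without EtOH 48 h replicate 1, 5 members were called at 48 h of ATRA and 3 at 48 h of 9-cis RA. Without 9-cis RA 48 h replicate 1, CDH7 alone was called at 48 h of 9-cis RA, and without either EtOH 24 h sample CDH7 and PCDH20 alone were called at 24 h of ATRA. At 24 h of 9-cis RA the count was 10 without either EtOH 48 h sample, 8 without ATRA 24 h replicate 4 and 7 without ATRA 48 h replicate 3, and at 48 h of 9-cis RA it was 11 without EtOH 48 h replicate 2-3. ATRA and 9-cis RA were compared with the same EtOH samples at each time, so their results share those controls. In cells measured in bulk, fewer cells with an RNA and less of it per cell cannot be told apart.

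**Figure D1:**
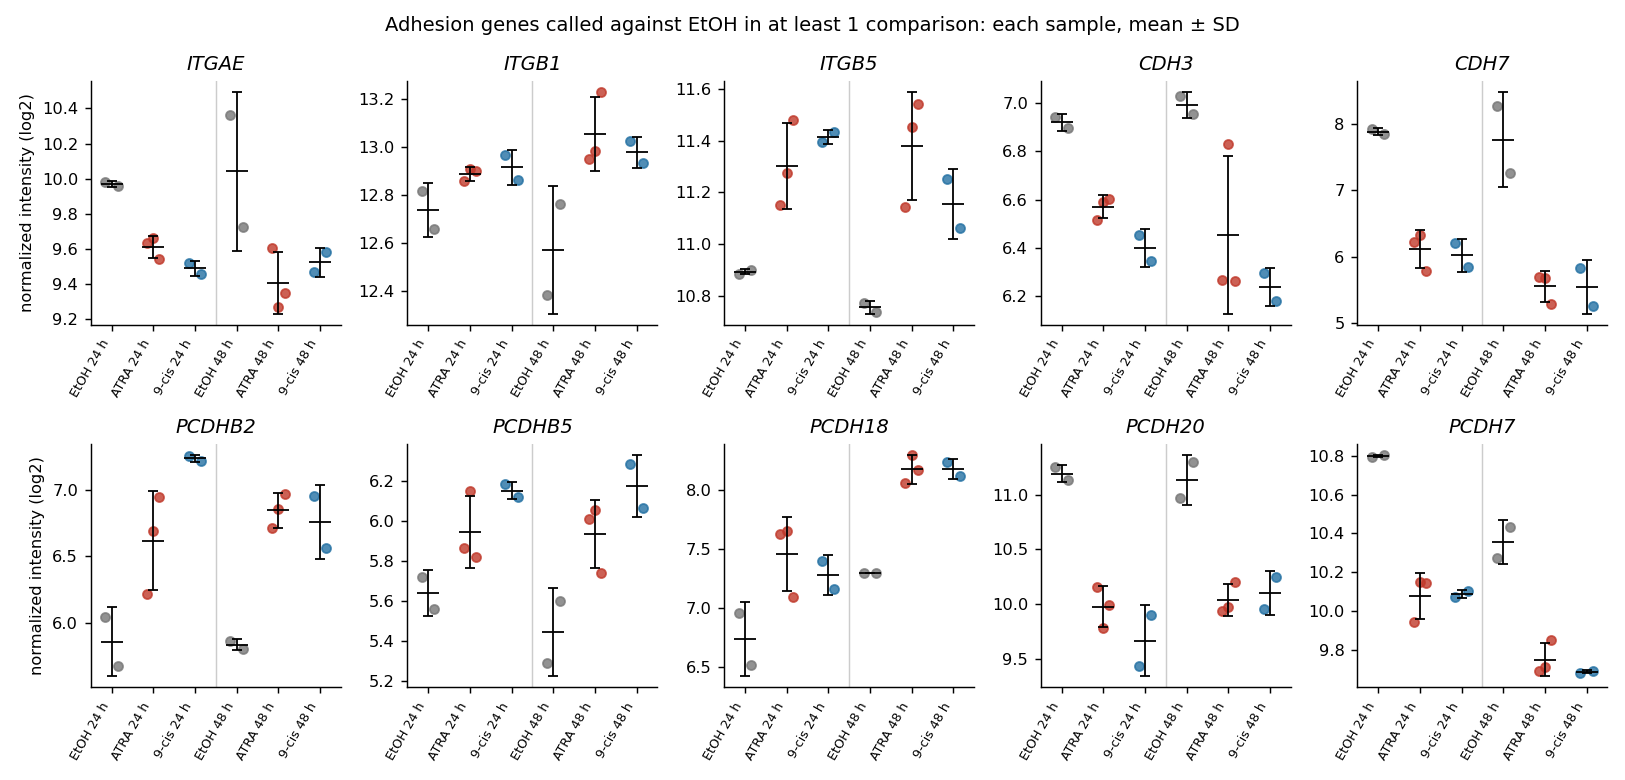
Normalized intensity (log2, y axis, a separate range in each panel) of the 10 adhesion genes called in at least 1 comparison with EtOH, by group (x axis). Points are samples (2 EtOH, 3 ATRA, 2 9-cis RA at each time) and bars are the mean ± SD. CDH7, PCDH20 and PCDH7 lay lower, and PCDHB2 higher, in every retinoid sample than in the EtOH samples of the same time.

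CDH7 encodes cadherin-7, a type II cadherin that in chick embryos marks migrating neural crest cells, and it had the largest decrease of any member. At 24 h its EtOH samples were at 7.92 and 7.85, the ATRA samples at 6.22, 6.33 and 5.79 and the 9-cis RA samples at 6.20 and 5.84. At 48 h the EtOH samples were at 8.28 and 7.26, the ATRA samples at 5.69, 5.67 and 5.28 and the 9-cis RA samples at 5.83 and 5.25. Every retinoid sample lay below both EtOH samples of its time, with a gap wider than the spread within any group. With ATRA it fell by 1.77 ± 0.28 at 24 h (difference of means in log2 ± SE, adjusted p = 0.00161; n = 3 and 2 samples), which is 3.42-fold lower. At 48 h of ATRA it fell by 2.22 ± 0.28, a 4.66-fold decrease (adjusted p = 0.00017). With 9-cis RA it fell by 1.87 ± 0.30 at 24 h and fell by 2.23 ± 0.30 at 48 h (adjusted p = 0.00174 and 0.000391). The probe was detected on every EtOH array but on only 2 of the 4 ATRA and 2 of the 3 9-cis RA arrays at each time, and in the second array set on 2 of 8 arrays. The fitted decrease therefore uses signals below detection. A second CDH7 probe was detected on 6 arrays. It gave differences of -1.33 and -1.67 with ATRA and of -1.24 and -1.63 with 9-cis RA at 24 and 48 h. All 25 alternatives, this probe among them, kept the call in each of the 4 comparisons.

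CDH3, which encodes P-cadherin, a classical cadherin of epithelia and of hair follicle pigment cells, fell at 48 h. Its EtOH samples were at 6.94 and 6.89 at 24 h and at 7.03 and 6.95 at 48 h. At 24 h the ATRA samples were at 6.52, 6.59 and 6.60 and the 9-cis RA samples at 6.46 and 6.35. At 48 h the ATRA samples were at 6.27, 6.83 and 6.26 and the 9-cis RA samples at 6.30 and 6.18. All retinoid samples lay below the EtOH samples, with ATRA 48 h replicate 3 the closest to them. It fell by 0.54 ± 0.16 at 48 h of ATRA (adjusted p = 0.0393) and by 0.75 ± 0.18 at 48 h of 9-cis RA (adjusted p = 0.0167), while -0.35 ± 0.16 and -0.52 ± 0.18 at 24 h did not pass (adjusted p = 0.251 and 0.0700). The ATRA call was lost in 17 of 24 alternatives, among them no background correction (-0.25, adjusted p = 0.0614), the authors' series matrix values (-0.19, adjusted p = 0.0649) and the first array set alone (-0.37, adjusted p = 0.150). It was lost when any 1 of 12 of the 14 samples was left out, with a difference of -0.44 without ATRA 48 h replicate 4 (adjusted p = 0.115) and of -0.50 without EtOH 48 h replicate 1 (adjusted p = 0.177). The 9-cis RA call was lost without EtOH 48 h replicate 1 or either 9-cis RA 48 h sample (adjusted p of 0.0789 to 0.112).

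The other tested cadherins were not called against EtOH. CDH19, a type II cadherin of Schwann cell precursors and melanocytic cells, differed by -0.69 ± 0.23 with ATRA and by -0.77 ± 0.26 with 9-cis RA at 24 h (adjusted p = 0.111 and 0.0606), and by 0.21 ± 0.23 and 0.04 ± 0.26 at 48 h. Its EtOH samples were at 8.25 and 8.34 at 24 h but at 6.96 and 7.96 at 48 h, so the controls at 48 h spanned the retinoid samples (7.41 to 7.80). CDH2, the N-cadherin of neural and mesenchymal cells, differed by 0.65 ± 0.23 and 0.60 ± 0.23 with 9-cis RA at 24 and 48 h (adjusted p = 0.0784 and 0.128) and by -0.24 ± 0.21 and 0.02 ± 0.21 with ATRA. CDH20, another type II cadherin, differed by between -0.37 and 0.18 and was detected on 8 of the 20 arrays. CDH10, CDH17 and CDH24 did not pass the detection filter.

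Among the protocadherins outside the clusters, PCDH20 and PCDH7 fell with both retinoids at both times. PCDH20 was at 11.25 and 11.13 in the EtOH samples at 24 h and at 10.97 and 11.30 at 48 h. At 24 h it was at 10.16, 9.79 and 9.99 with ATRA and at 9.44 and 9.90 with 9-cis RA, and at 48 h at 9.94, 9.97 and 10.20 with ATRA and at 9.96 and 10.24 with 9-cis RA. No retinoid sample came within 0.5 of an EtOH sample. The fall with ATRA was 2.32-fold at 24 h (-1.21 ± 0.18, adjusted p = 0.00109) and 2.14-fold at 48 h (-1.10 ± 0.18, adjusted p = 0.00129). With 9-cis RA it was 2.87-fold at 24 h (-1.52 ± 0.20, adjusted p = 0.000326) and 2.05-fold at 48 h (-1.03 ± 0.20, adjusted p = 0.0045). Of the alternatives, only leaving out 9-cis RA 48 h replicate 1 ended a call, that of 9-cis RA at 48 h (-0.89, adjusted p = 0.0666).

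PCDH7 encodes a protocadherin that in Xenopus embryos is needed for adhesion within the ectoderm. Its EtOH samples were at 10.80 and 10.80 at 24 h and at 10.27 and 10.44 at 48 h. At 24 h the ATRA samples were at 9.94, 10.15 and 10.15 and the 9-cis RA samples at 10.07 and 10.10, and at 48 h they were at 9.69, 9.71 and 9.85 and at 9.68 and 9.69. Within each time the retinoid samples all lay below the EtOH samples. It fell by 0.72 ± 0.13 and 0.61 ± 0.13 with ATRA (adjusted p = 0.00364 and 0.00592) and by 0.71 ± 0.14 and 0.67 ± 0.14 with 9-cis RA (adjusted p = 0.00553 and 0.00713) at 24 and 48 h. Other PCDH7 probes gave differences of unequal size. One ranged from -1.18 to -0.75 over the 4 comparisons and was not called at 48 h (adjusted p = 0.0827 with ATRA and 0.0837 with 9-cis RA). Another ranged from -0.46 to -0.060 and was called in none (adjusted p of 0.232 to 0.919). These probes were detected on 14 and 7 arrays, in that order, and the main probe on all arrays. Their differences thus use signals below detection. Both calls at 24 h were lost without EtOH 24 h replicate 2-3 (adjusted p = 0.0565 and 0.0579), that of ATRA also without replicate 1 (0.0549), and those of 9-cis RA without 9-cis RA replicate 1 of the same time (0.0635 and 0.0632), with the differences between -0.66 and -0.73 in each case.

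PCDH18, a delta protocadherin, rose with ATRA at both times and with 9-cis RA at 48 h. At 24 h its EtOH samples were at 6.96 and 6.52, the ATRA samples at 7.63, 7.66 and 7.09 and the 9-cis RA samples at 7.40 and 7.16. At 48 h they were at 7.30 and 7.30, at 8.06, 8.30 and 8.17 and at 8.24 and 8.12. The retinoid samples lay above the EtOH samples at both times, with the gap narrowest for ATRA 24 h replicate 4, and the samples of both retinoids overlapped with each other. It rose by 0.72 ± 0.19 and 0.88 ± 0.19 with ATRA at 24 and 48 h (adjusted p = 0.0420 and 0.00714) and by 0.88 ± 0.21 with 9-cis RA at 48 h (adjusted p = 0.0150), and the difference of 0.54 ± 0.21 with 9-cis RA at 24 h did not pass (adjusted p = 0.093). The ATRA call at 24 h was lost in 14 of 25 alternatives, with differences of 0.50 without EtOH 24 h replicate 2-3 and of 0.94 without replicate 1 (adjusted p = 0.424 and 0.0605). That of 9-cis RA at 48 h was lost without EtOH 48 h replicate 1 or either 9-cis RA 48 h sample (adjusted p of 0.0616 to 0.121). A second PCDH18 probe gave 0.44 and 0.85 with ATRA and 0.41 and 0.90 with 9-cis RA at 24 and 48 h. PCDH9, PCDH10 and PCDH15 did not pass the detection filter.

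PCDHB2 of the beta cluster was the only member to rise in all 4 comparisons. Its EtOH samples were at 6.04 and 5.67 at 24 h and at 5.87 and 5.81 at 48 h. The ATRA samples were at 6.21, 6.69 and 6.95 at 24 h and at 6.71, 6.86 and 6.97 at 48 h, and the 9-cis RA samples at 7.25 and 7.22 and at 6.95 and 6.56. Each retinoid sample lay above both EtOH samples of its time, by the least for ATRA 24 h replicate 1-2. With ATRA it rose by 0.76 ± 0.20 at 24 h (adjusted p = 0.0462) and by 1.01 ± 0.20 at 48 h (adjusted p = 0.00497), which is 1.69-fold and 2.02-fold. With 9-cis RA it rose by 1.38 ± 0.22 and 0.92 ± 0.22, which is 2.60-fold and 1.89-fold (adjusted p = 0.00171 and 0.0177). It was detected on 2 of 3 arrays of each EtOH group. The ATRA call at 24 h was lost in 16 of 24 alternatives, with differences of 0.58 without EtOH 24 h replicate 2-3 and of 0.94 without replicate 1 (adjusted p = 0.403 and 0.103), and that of 9-cis RA at 48 h without EtOH 48 h replicate 1 or 9-cis RA 48 h replicate 1 (0.95 and 0.72, adjusted p = 0.0692 and 0.186) and with the authors' series matrix values (0.28, adjusted p = 0.0523).

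PCDHB5 of the same cluster was at 5.72 and 5.56 with EtOH at 24 h and at 5.29 and 5.60 at 48 h. The ATRA samples were at 5.87, 6.15 and 5.82 at 24 h and at 6.01, 6.05 and 5.74 at 48 h, and the 9-cis RA samples at 6.18 and 6.12 and at 6.28 and 6.07. All retinoid samples lay above the EtOH samples of their time, and the nearest was ATRA 24 h replicate 4. It rose by 0.73 ± 0.18 at 48 h of 9-cis RA (adjusted p = 0.0166), and differences of 0.31 ± 0.16, 0.49 ± 0.16 and 0.51 ± 0.18 at 24 and 48 h of ATRA and 24 h of 9-cis RA did not pass (adjusted p = 0.300, 0.0511 and 0.0665). It was detected on 11 of 12 arrays of the first set and on 0 of 8 of the second. The call was lost without EtOH 48 h replicate 1 or 9-cis RA 48 h replicate 1 (0.58 and 0.62, adjusted p = 0.114 and 0.159). It was also lost without background correction (0.24, adjusted p = 0.0907), with the authors' series matrix values (0.17, adjusted p = 0.105) and with the first array set alone (0.64, adjusted p = 0.0501).

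The remaining clustered protocadherins were not called. PCDHB9 differed by 0.24 ± 0.31 and 0.51 ± 0.34 at 24 h of ATRA and 9-cis RA and by -0.60 ± 0.31 and -0.51 ± 0.34 at 48 h, and its EtOH samples were at 5.97 and 5.60 at 24 h and at 7.46 and 6.45 at 48 h. PCDHGB6 of the gamma cluster ranged from -0.54 to 0.09, PCDHAC2 of the alpha cluster from -0.74 to 0.21 and the pseudogene PCDHB19P from -0.51 to -0.03. PCDHAC2 and PCDHB19P were detected on 4 and 6 of the 20 arrays. PCDHA1, PCDHA2, PCDHA3, PCDHA4, PCDHGC3 and PCDHB17P did not pass the detection filter. Clustered protocadherins are similar in sequence, and whether their probes also bound RNA of related copies was not tested.

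The proximal promoters of 19 of the 26 genes were matched in RefSeq (GRCh38.p14), as windows from 250 bases before to 50 after a gene's start. Promoters of clustered protocadherins are known to share a conserved element bound by the factor CTCF. The windows of the 3 tested beta cluster genes that encode proteins are shown because PCDHB2 was called in all 4 comparisons, PCDHB5 in 1 and PCDHB9 in none, a difference between the genes that was not tested. Capitals mark GGTGGCGCTGCAG, which is the longest run of letters common to these 3 windows and was found from them.
PCDHB2 promoter, chr5:141094365-141094664 (+ strand): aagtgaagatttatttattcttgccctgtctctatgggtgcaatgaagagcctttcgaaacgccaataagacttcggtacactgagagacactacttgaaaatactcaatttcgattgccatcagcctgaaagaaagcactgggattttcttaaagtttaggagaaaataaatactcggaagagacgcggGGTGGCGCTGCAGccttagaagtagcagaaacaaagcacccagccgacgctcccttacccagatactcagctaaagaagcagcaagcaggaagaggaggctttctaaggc
PCDHB5 promoter, chr5:141134956-141135255 (+ strand): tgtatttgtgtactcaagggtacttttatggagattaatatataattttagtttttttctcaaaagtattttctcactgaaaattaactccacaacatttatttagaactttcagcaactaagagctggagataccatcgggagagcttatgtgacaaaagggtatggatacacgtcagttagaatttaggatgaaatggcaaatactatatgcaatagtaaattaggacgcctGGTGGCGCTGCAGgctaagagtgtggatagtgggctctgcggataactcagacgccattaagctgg
PCDHB9 promoter, chr5:141186911-141187210 (+ strand): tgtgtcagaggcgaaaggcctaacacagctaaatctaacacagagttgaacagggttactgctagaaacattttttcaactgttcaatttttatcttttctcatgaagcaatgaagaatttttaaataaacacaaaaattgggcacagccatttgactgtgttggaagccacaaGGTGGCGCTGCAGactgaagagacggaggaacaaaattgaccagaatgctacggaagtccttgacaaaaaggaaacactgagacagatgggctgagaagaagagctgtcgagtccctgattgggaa
On either strand, the run was in 15 of 35116 windows of all genes (0.0427%) and in windows of 10 of 47 clustered protocadherin genes (21.3%). Both counts include the 3 genes it was found from, which hold it by construction. A share of windows and a share of genes are unlike measures, since a gene can have several windows. The next windows are those of CDH7, the member with the largest decrease, and of PCDH7, the only matched member called in all 4 comparisons whose window held a retinoid receptor half-site. Capitals mark a half-site, searched on both strands as AGGTCA and also with its variants AGTTCA along with GGGTCA along with GGTTCA.
CDH7 promoter, chr18:65750002-65750301 (+ strand): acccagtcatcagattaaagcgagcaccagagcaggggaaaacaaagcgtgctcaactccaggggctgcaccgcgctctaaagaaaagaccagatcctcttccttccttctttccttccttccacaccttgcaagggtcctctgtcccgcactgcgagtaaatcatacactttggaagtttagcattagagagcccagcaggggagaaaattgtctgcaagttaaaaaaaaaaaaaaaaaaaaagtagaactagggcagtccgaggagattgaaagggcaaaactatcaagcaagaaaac
PCDH7 promoter, chr4:30720119-30720418 (+ strand): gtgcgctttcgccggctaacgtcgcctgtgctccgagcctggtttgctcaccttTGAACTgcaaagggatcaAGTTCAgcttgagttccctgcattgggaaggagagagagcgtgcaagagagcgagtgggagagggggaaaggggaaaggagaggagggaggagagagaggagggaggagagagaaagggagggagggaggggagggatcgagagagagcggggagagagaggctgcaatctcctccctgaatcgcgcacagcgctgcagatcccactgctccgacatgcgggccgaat
RefSeq lists 2 windows for CDH7, of which the first is printed. Such half-sites were in 38.6% of all windows and in windows of 7 of the 19 matched members, which have 26 windows in all. Direct repeats of half-sites spaced by 1, 2 or 5 bases were in 0.131%, 0.0399% and 0.0883% of all windows and in 0 of the 19 members. A match only says that these letters are present.

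Of 9 tested integrin alpha chains, 1 was called at 48 h of ATRA (11.1%, against 17.4% of all genes) and 0 in the other 3 comparisons, where 5.75%, 14.5% and 11.0% of all genes were (limma, 0, 4 and 4 chains at an unadjusted p under 0.05). ITGAE, the alpha E chain that pairs with the β7 chain on lymphocytes of epithelia, was the one that passed, with a decrease. Its EtOH samples were at 9.98 and 9.96 at 24 h and at 10.36 and 9.72 at 48 h. The ATRA samples were at 9.63, 9.66 and 9.54 at 24 h and at 9.61, 9.27 and 9.35 at 48 h, and the 9-cis RA samples at 9.52 and 9.46 and at 9.47 and 9.58. Every retinoid sample lay below the EtOH samples of its time, and EtOH 48 h replicate 1 stood well above all others. It fell by 0.63 ± 0.17 at 48 h of ATRA (adjusted p = 0.0246), and the other differences of -0.36 ± 0.17, -0.48 ± 0.19 and -0.52 ± 0.19 did not pass (adjusted p = 0.264, 0.102 and 0.103 at 24 h of ATRA and at 24 and 48 h of 9-cis RA). Without EtOH 48 h replicate 1 the difference was -0.32 (adjusted p = 0.270), and the call was also lost without ATRA 48 h replicate 3 or 4 (adjusted p = 0.0733 and 0.0613) and with the first array set alone (-0.58, adjusted p = 0.0823).

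The other alpha chains were not called in any comparison. ITGA3, a laminin receptor chain, differed by 0.61 ± 0.21 at 48 h of ATRA and by 0.57 ± 0.23 and 0.74 ± 0.23 at 24 and 48 h of 9-cis RA, each short of the threshold (adjusted p = 0.0587, 0.104 and 0.0553), and by -0.03 ± 0.21 at 24 h of ATRA. ITGA5, the alpha chain of the main fibronectin receptor, differed by 0.67 ± 0.21 at 24 h of 9-cis RA (adjusted p = 0.0507) and by 0.04 to 0.23 elsewhere. ITGA9, which binds tenascin, differed by -0.54 ± 0.17 and -0.36 ± 0.15 at 48 h of 9-cis RA and ATRA (adjusted p = 0.0545 and 0.123). ITGAV, the alpha V chain of receptors for vitronectin and osteopontin, stayed between -0.14 and 0.00, with every 95% interval within -0.49 and 0.32. The collagen receptor chains ITGA2 and ITGA11 ranged from -0.33 to -0.14 and from -0.62 to -0.04. ITGA4, which binds VCAM1 and fibronectin, ranged from -0.35 to -0.17 and was detected on 11 of 12 arrays of the first set and on 0 of 8 of the second. ITGA7, a laminin receptor chain of muscle, differed by -0.69 ± 0.25 at 24 h of 9-cis RA (adjusted p = 0.0821), where it was detected on 0 of 3 arrays, and by -0.12 to 0.14 elsewhere. ITGA1 and ITGA6 were not detected on any array.

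Of the beta chains, ITGB1 and ITGB5 rose at 48 h of ATRA. ITGB1, the partner of many alpha chains, was at 12.82 and 12.66 with EtOH at 24 h and at 12.39 and 12.76 at 48 h. The ATRA samples were at 12.86, 12.91 and 12.90 at 24 h and at 12.95, 12.99 and 13.23 at 48 h, and the 9-cis RA samples at 12.97 and 12.86 and at 13.03 and 12.94. The retinoid samples lay above the EtOH samples at both times, at 24 h by little. It rose by 0.48 ± 0.15 at 48 h of ATRA (adjusted p = 0.0372), and the differences of 0.15 ± 0.15, 0.18 ± 0.16 and 0.41 ± 0.16 at 24 h of ATRA and 24 and 48 h of 9-cis RA did not pass (adjusted p = 0.597, 0.464 and 0.129). The call was lost in 15 of 25 alternatives, with 0.29 without EtOH 48 h replicate 1 (adjusted p = 0.298), and with equal array medians in place of quantile normalization the difference at 24 h of ATRA turned to -0.065. A second ITGB1 probe gave 0.28 and 1.02 with ATRA and 0.11 and 0.95 with 9-cis RA at 24 and 48 h, and its difference of 1.02 did not pass (adjusted p = 0.0677).

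ITGB5, which pairs with the alpha V chain, was at 10.89 and 10.90 with EtOH at 24 h and at 10.77 and 10.74 at 48 h. The ATRA samples were at 11.15, 11.27 and 11.48 at 24 h and at 11.14, 11.45 and 11.54 at 48 h, and the 9-cis RA samples at 11.39 and 11.43 and at 11.25 and 11.06. All retinoid samples were above all EtOH samples. It rose by 0.62 ± 0.15 at 48 h of ATRA (adjusted p = 0.0133), and the differences of 0.41 ± 0.15 at 24 h of ATRA and of 0.52 ± 0.16 and 0.40 ± 0.16 with 9-cis RA did not pass (adjusted p = 0.140, 0.0509 and 0.148). That at 24 h of 9-cis RA was not called in 12 of 26 alternatives and passed in the others, with adjusted p from 0.00455 to 0.598. With equal array medians, which moved the median of all genes to -0.10, the 48 h differences with ATRA were 0.38 for ITGB5 and 0.17 for ITGB1 and neither was called (adjusted p = 0.107 and 0.552). The ITGB5 call was also lost without EtOH 48 h replicate 1 (0.64, adjusted p = 0.0583). Other ITGB5 probes, each detected on all 20 arrays, gave unequal results. The probe with the larger differences ranged from 0.60 to 1.08 over the 4 comparisons. It was called at 48 h of ATRA (0.91, adjusted p = 0.0105) and at 24 h of 9-cis RA (1.08, adjusted p = 0.00973). The probe with the smaller differences ranged from 0.13 to 0.37 and was called in none. With that probe the ITGB5 call at 48 h of ATRA was thus lost (0.28, adjusted p = 0.187). ITGB2, the beta chain of leukocyte integrins, ranged from -0.29 to -0.03 and was called in none. A second ITGB2 probe, detected on all 20 arrays, ranged from -0.07 to 0.23 and was called in none either.

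**Figure D2:**
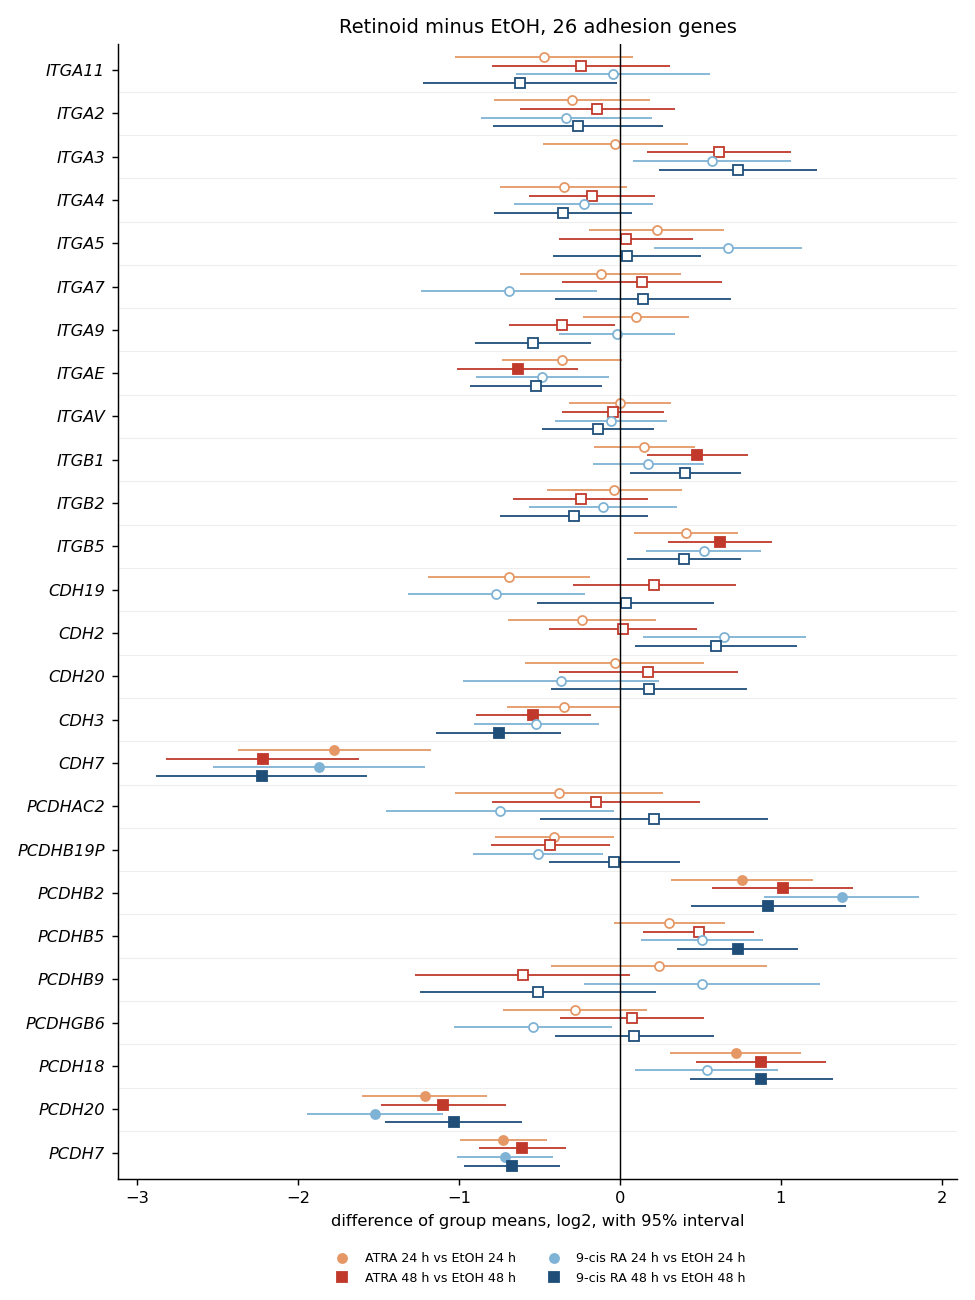
Difference of group means between each retinoid and EtOH (x axis, log2) for the 26 tested adhesion genes (y axis, ordered by family), with 95% intervals. Filled symbols passed an adjusted p under 0.05 and open symbols did not, circles are 24 h and squares 48 h. CDH7 lay between -2.23 and -1.77 and PCDH20 between -1.52 and -1.03, while the intervals of ITGAV all spanned 0.

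The isomers were compared at the same dose and time, as 1 pair at each time, with p-values adjusted over all genes. None of the 26 genes was called at 24 h, where 0.0656% of all genes were called, or at 48 h, where 0.0375% were (limma, 5 and 2 members at an unadjusted p under 0.05). CDH2 had the largest difference. Its ATRA samples at 24 h were at 5.48, 5.71 and 5.41 and its 9-cis RA samples at 6.38 and 6.46, a difference of -0.88 (95% interval -1.35 to -0.42, adjusted p = 0.263). At 48 h its ATRA samples were at 5.59, 6.02 and 5.71 and its 9-cis RA samples at 6.64 and 6.07, a difference of -0.58 (-1.04 to -0.12, adjusted p = 0.877). The groups did not overlap at either time, and the EtOH samples (5.47 to 6.04) lay among the ATRA samples or close to them. CDH2 was detected on 11 of 12 arrays of the first set and on 1 of 8 of the second. At 24 h PCDHB2 differed by -0.62 (-1.06 to -0.18, adjusted p = 0.380) and ITGA3 by -0.60 (-1.05 to -0.15, adjusted p = 0.390), and at 48 h by 0.09 and -0.12. With the 20 arrays taken as independent, CDH2 was called at 24 h, and with the first array set alone PCDHB2 was. For the 4 genes called in every comparison with EtOH, the interval of the isomer difference at 48 h was -0.59 to 0.61 for CDH7, -0.45 to 0.32 for PCDH20, -0.21 to 0.33 for PCDH7 and -0.35 to 0.53 for PCDHB2. Intervals of this width do not show that the isomers act alike on these genes.

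**Figure D3:**
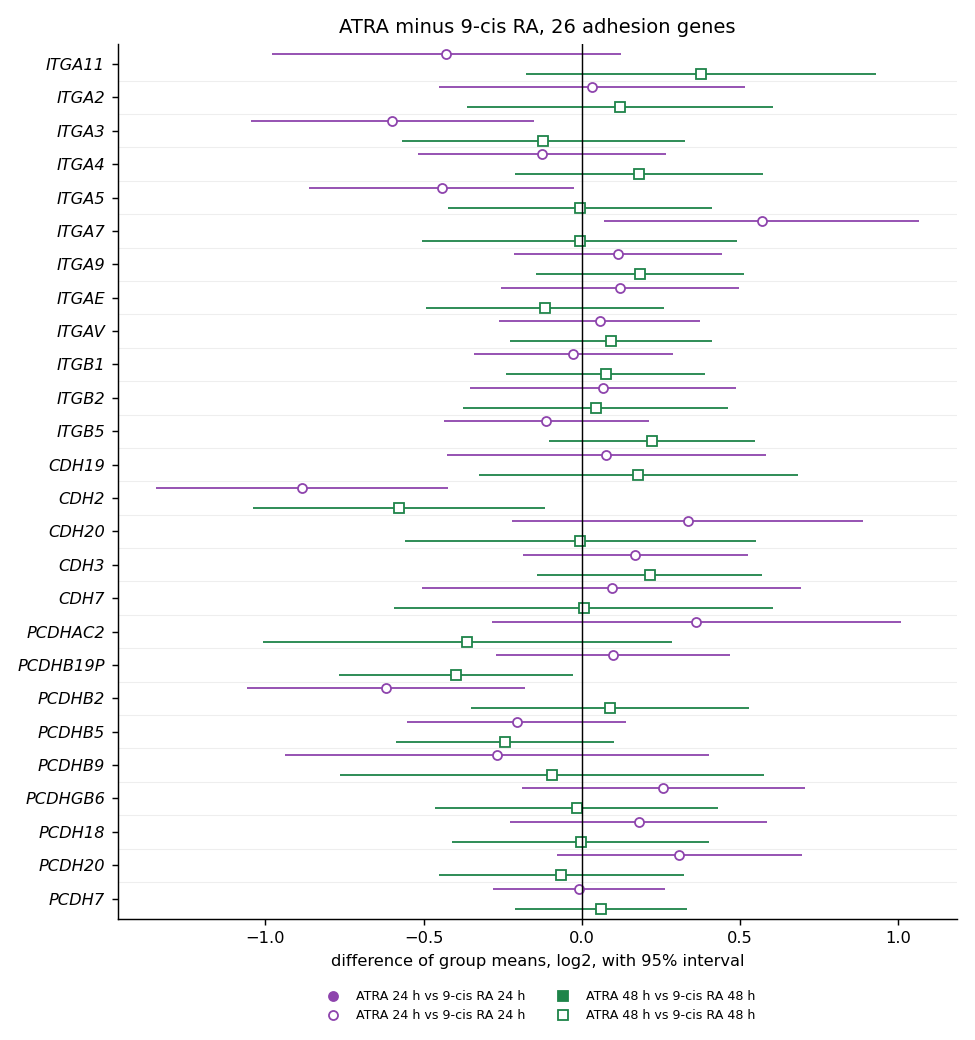
Difference of group means, ATRA minus 9-cis RA (x axis, log2, with 95% intervals), for the 26 tested adhesion genes at 24 h (circles) and 48 h (squares). All symbols are open since none passed an adjusted p under 0.05, and CDH2 lay lowest at -0.88 and -0.58.

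Time was tested as the change of each retinoid effect from 24 to 48 h and as 48 against 24 h of EtOH. No member was called for ATRA, for 9-cis RA or for EtOH, where 0.0375%, 0.00937% and 0.0281% of all genes were called (limma, with 2, 3 and 4 members at an unadjusted p under 0.05). The effect on CDH19 changed by 0.90 ± 0.33 for ATRA and by 0.80 ± 0.36 for 9-cis RA (adjusted p = 1.00 and 0.366), beside a difference of -0.83 ± 0.26 between the EtOH groups (adjusted p = 0.564). PCDHB9 differed by 1.17 ± 0.34 between the EtOH times (adjusted p = 0.539). Without EtOH 48 h replicate 2-3, CDH19 was called in all 3 tests of time and PCDHB9 in that of EtOH.

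Genes that work with these receptors were described from lists of ligands, adaptors, linkers and other adhesion genes. The lists were chosen with earlier results of these data known. A share above that of all genes is thus a description and no test of a list. Of 21 tested integrin ligands, 1 rose and 2 fell at 24 h of ATRA, 3 and 4 at 48 h of ATRA, 2 and 2 at 24 h of 9-cis RA and 3 and 2 at 48 h of 9-cis RA. These are 14.3%, 33.3%, 19.0% and 23.8% of the ligands, against 5.75%, 17.4%, 14.5% and 11.0% of all genes. SPP1, which encodes osteopontin, a ligand of alpha V integrins, was at 9.50 to 9.77 in the EtOH samples, at 12.65 to 13.00 with retinoids at 24 h and at 13.24 to 13.44 at 48 h. It rose by 3.24 to 3.72 over the 4 comparisons, beside ITGAV, which was not called in any. CCN3, a secreted matricellular protein that binds several integrins, was at 8.37 to 8.74 with EtOH, at 6.82 to 7.34 with retinoids at 24 h and at 5.61 to 6.33 at 48 h. COL9A1, a chain of collagen IX, was at 6.98 to 7.68 with EtOH and at 4.79 to 5.33 with retinoids, where it was detected on 1 of 14 arrays. It was at least 2.12-fold lower at 24 h of ATRA and at least 2.66-fold and 3.20-fold lower at 24 and 48 h of 9-cis RA. The retinoid samples of SPP1, CCN3 and COL9A1 did not overlap with EtOH, and each of the 3 was called in all 4 comparisons. POSTN, which encodes periostin, a ligand of alpha V integrins, was detected on 0 EtOH arrays and was at least 2.14-fold higher at 48 h of ATRA and at least 1.33-fold higher at 48 h of 9-cis RA (adjusted p = 0.00016 and 0.0119). The latter call was lost in 4 of 25 alternatives (adjusted p up to 0.0968, without 9-cis RA 48 h replicate 2-3). FN1 was not analysed here.

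Of 32 tested adaptors of focal adhesions, 2 rose and 2 fell at 24 h of ATRA, 6 and 3 at 48 h of ATRA, 2 and 3 at 24 h of 9-cis RA and 3 and 3 at 48 h of 9-cis RA. In the same order 12.5%, 28.1%, 15.6% and 18.8% of the adaptors were called, against 5.75%, 17.4%, 14.5% and 11.0% of all genes. FHL2, a LIM domain protein that binds integrin tails, rose by 0.73 ± 0.14 and 1.00 ± 0.14 with ATRA and by 0.77 ± 0.15 at 48 h of 9-cis RA (adjusted p = 0.0068, 0.000368 and 0.00544). FERMT1, a kindlin that activates integrins, was detected on 0 of 4 arrays at 48 h of ATRA, where it was at least 1.97-fold lower (adjusted p = 0.000782), and it fell by 1.21 ± 0.26 at 48 h of 9-cis RA (adjusted p = 0.00994). ZYX, which encodes zyxin, rose by 0.99 ± 0.19 at 48 h of ATRA and by 0.96 ± 0.21 and 1.12 ± 0.21 with 9-cis RA (adjusted p = 0.00415, 0.012 and 0.00448), but a second probe gave 0.16, -0.016 and 0.50 and was not called. ACTN4, an actin-binding alpha actinin, fell by 0.53 ± 0.12 at 48 h of ATRA and by 0.70 ± 0.13 and 0.56 ± 0.13 with 9-cis RA. Among these calls, those of FHL2 at 24 h of ATRA and of ACTN4 with 9-cis RA were each lost in 3 alternatives (adjusted p up to 0.107, 0.0578 and 0.116), those of FHL2 and FERMT1 at 48 h of 9-cis RA each in 2, and that of ZYX at 24 h of 9-cis RA in 5.

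Of 19 tested catenins and other linkers of cadherins, 1 fell in each of the 4 comparisons and between 1 and 3 rose. The share called was 10.5% and 21.1% at 24 and 48 h of ATRA and 15.8% at both times of 9-cis RA, against 5.75%, 17.4%, 14.5% and 11.0% of all genes, so that at 24 h of 9-cis RA it was close to that of all genes. The one that fell was NECTIN3, an immunoglobulin-type receptor of adherens junctions, which went from 8.27 to 8.39 with EtOH to 7.26 to 7.46 with retinoids at 24 h and 6.70 to 7.35 at 48 h. JUP, which encodes plakoglobin, rose at 48 h of both retinoids. The differences were 0.87 ± 0.18 with ATRA and 0.83 ± 0.20 with 9-cis RA (adjusted p = 0.0058 and 0.0163). Other JUP probes gave 0.21 to 0.66 there and were not called. They were detected on 11 and 8 arrays, so their differences use signals below detection. Over all alternatives, the JUP call at 48 h was lost in 2 of 26 with ATRA. With 9-cis RA it was lost in 5 of 26, among them leaving out either 9-cis RA 48 h sample. ADAM10, a protease that sheds cadherins, was at 7.57 and 7.48 with EtOH at 24 h but at 6.53 and 8.73 at 48 h, against 8.95 to 9.42 in the retinoid samples. Without EtOH 48 h replicate 1, its difference at 48 h of ATRA went from 1.53 to 0.43 and was not called (adjusted p = 0.143). Its calls at 24 h were lost in 9 of 25 alternatives with ATRA and in 12 of 25 with 9-cis RA. CYFIP2, a subunit of the WAVE complex that was detected on 0 of 3 EtOH arrays at 48 h, was at least 1.43-fold higher at 48 h of ATRA and at least 1.66-fold higher at 48 h of 9-cis RA (adjusted p = 0.0295 and 0.0205). At 24 h it rose by 1.21 ± 0.26 with 9-cis RA (adjusted p = 0.0102) and differed by 0.058 ± 0.24 with ATRA (adjusted p = 0.924), and the difference between the isomers of -1.15 ± 0.24 did not pass (adjusted p = 0.160). The calls at 48 h were lost in 7 of 24 alternatives with ATRA and in 4 of 24 with 9-cis RA, among them no background correction (0.28 and 0.36, adjusted p = 0.0759 and 0.0534) and the authors' series matrix values (0.21 and 0.27, adjusted p = 0.0928 and 0.0674), and that at 24 h in 3 of 24.

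Of 7 other cadherin superfamily genes, the desmosomal cadherin DSC2 fell at 24 h of both retinoids and the giant cadherin FAT1 at 24 h of ATRA. This is 28.6% of them at 24 h of ATRA, against 5.75% of all genes. At 24 h of 9-cis RA it is 14.3%, close to the 14.5% of all genes. At 48 h of ATRA and 9-cis RA 0 were called, against 17.4% and 11.0% of all genes. DSC2 was detected at 24 h on 2 of 3 EtOH, 0 of 4 ATRA and 0 of 3 9-cis RA arrays. The FAT1 call was lost in 15 of 25 alternatives. A second FAT1 probe, detected on all 20 arrays, gave -0.71 at 24 h of ATRA and was not called (adjusted p = 0.0756). At 24 h of 9-cis RA it gave -0.79 and was called (adjusted p = 0.0432), where the main probe gave -0.51 and was not. The DSC2 call was lost in 5 of 23 with ATRA and in 9 of 23 with 9-cis RA (adjusted p up to 0.218 and 0.210, without EtOH 24 h replicate 1). Of 11 other adhesion receptors known from melanocytic cells, between 2 and 4 fell and 0 or 1 rose. This is 36.4% and 27.3% of them at 24 and 48 h of ATRA and 45.5% and 27.3% with 9-cis RA, against 5.75%, 17.4%, 14.5% and 11.0% of all genes. NRCAM, an immunoglobulin-type neuronal adhesion molecule, was at 6.44 to 7.94 with EtOH and at 4.73 to 5.67 with retinoids, detected there on 1 of 14 arrays, and was at least 3.63-fold lower at 24 h of ATRA and at least 1.85-fold and 1.96-fold lower at 48 h of ATRA and 9-cis RA. CD44, the hyaluronan receptor, fell by 0.75 ± 0.16 and 0.63 ± 0.16 with ATRA and by 0.60 ± 0.18 and 1.17 ± 0.18 with 9-cis RA. ALCAM fell by 0.76 ± 0.18 and 0.67 ± 0.18 with ATRA and by 0.70 ± 0.20 at 24 h of 9-cis RA. MCAM, a melanoma cell adhesion molecule, rose by 0.77 ± 0.16 at 24 h of ATRA and by 1.09 ± 0.18 and 0.59 ± 0.18 with 9-cis RA (adjusted p = 0.0126, 0.00174 and 0.0493). Its call at 48 h of 9-cis RA was lost in 18 of 24 alternatives (adjusted p up to 0.346, without 9-cis RA 48 h replicate 1) and that at 24 h of ATRA in 5 of 24 (0.148 and 0.0953 without EtOH 24 h replicate 1 and 2-3). The calls of CD44 and ALCAM at 24 h of 9-cis RA were each lost in 7 alternatives (adjusted p up to 0.232 and 0.221), and those with ATRA in 2 to 4.

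**Figure D4:**
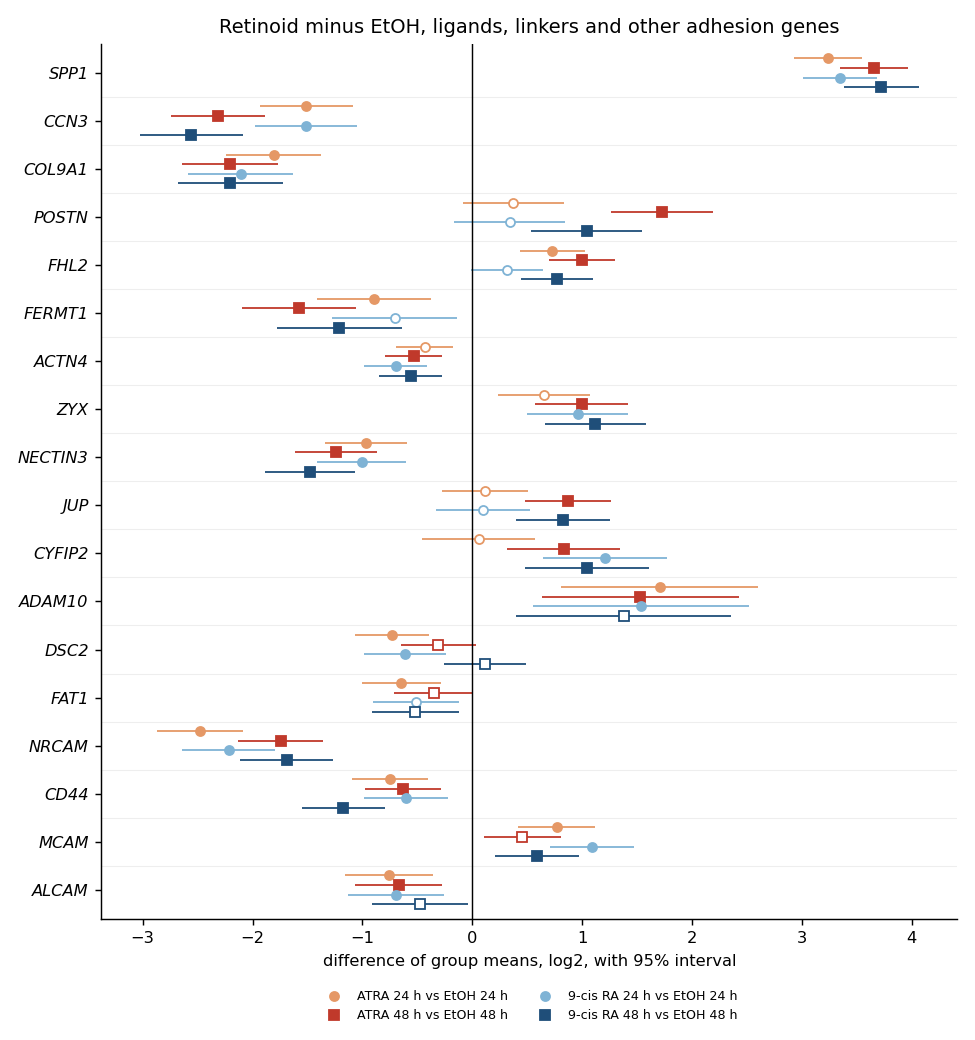
Difference of group means between each retinoid and EtOH (x axis, log2, with 95% intervals) for the 18 named ligands, adaptors, linkers and other adhesion genes (y axis). Filled symbols passed an adjusted p under 0.05, circles are 24 h and squares 48 h. SPP1 lay between 3.24 and 3.72, and CCN3, COL9A1 and NRCAM between -2.56 and -1.51.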

How the data were processed

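RNA of Mel202 cells was measured on 20 Illumina BeadChips. The deposited non-normalized table gives, per the file headers, an intensity and a detection p-value for each probe and array. The series matrix holds log2 values that the authors obtained with lumi, per the submitters' processing notes (its version and settings are not given in the sources used here), and it served as an alternative. With limma 3.58.1 in R 4.3.3, intensities were background corrected, quantile normalized and log2 transformed (neqc, offset 16). Genes came from the platform annotation (16545 probes with 1 gene, 3 with several, out of 47323; the others are unnamed here). Probes had to reach a detection p under 0.01 on 3 or more arrays, and each gene was read from its probe of highest mean. Arrays with the same title number were averaged. A fit with 6 group means gave moderated tests (limma, 8 residual and 5.09 prior degrees of freedom), adjusted over 10673 genes by Benjamini and Hochberg. The fit was tested on simulated data for ATRA against EtOH at 24 h. It recovered 20.9% of 1.5-fold, 79.1% of 2-fold and 100% of 4-fold changes, and 6.34% of its calls were false. Most changes of 1.5-fold were thus missed there, so a gene that was not called may still have changed.

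A fold is given as at least a bound where a gene was undetected on every array of 1 group. The members and all lists were chosen with earlier results of these data known. Members called against EtOH at least once were named with all values, and up to 4 called genes of lowest p from each list, with SPP1 and FN1. Promoters are from RefSeq. Alternatives concerned background, scaling, offset, filter, array averaging, array set, other probes and each sample left out. The number of arrays limits the precision. Figures used matplotlib 3.10.9.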

Additional observations from a re-analysis of the deposited data

How the results depend on the processing

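Of 25 calls of a named member against EtOH, 10 were kept under every alternative: all 4 of CDH7, those of PCDH20 at 24 and 48 h of ATRA and at 24 h of 9-cis RA, those of PCDHB2 at 48 h of ATRA and at 24 h of 9-cis RA, and that of PCDH18 at 48 h of ATRA. At 24 h of ATRA, 3 members were called without background correction and 3 with the series matrix values, in place of 5. At 24 h of 9-cis RA, where 4 were called, the count was 7 without background correction, with the series matrix values, with an offset of 50 and with detection required on every array of a group, 12 with the 20 arrays as independent, 10 with a term for the array set plus title number as random block (correlation 0.648), 8 with the first array set alone and 9 without the samples measured in the second set alone, an alternative added after seeing the data. ATRA against 9-cis RA at 24 h gave 1 member in place of 0 with the 20 arrays as independent and 1 with the first array set alone. Leaving out each sample in turn gave 2 to 6 members at 24 h of ATRA (2 without either EtOH 24 h sample, and 3 without ATRA 24 h replicate 3, ATRA 48 h replicate 1-2 or 3 or any 1 of the 4 9-cis RA samples), 5 to 12 at 48 h of ATRA (5 without EtOH 48 h replicate 1), 3 to 10 at 24 h of 9-cis RA (10 without either EtOH 48 h sample, 8 without ATRA 24 h replicate 4 and 7 without ATRA 48 h replicate 3) and 1 to 11 at 48 h of 9-cis RA (lowest, 1, when 9-cis RA 48 h replicate 1 was left out, then 3 for EtOH 48 h replicate 1, and highest, 11, for EtOH 48 h replicate 2-3). It gave 0 to 1 for the change of each retinoid effect with time and 0 to 2 for EtOH over time, the higher counts without EtOH 48 h replicate 2-3. Where this left 1 sample in a group, that sample was assumed to vary like the others. The difference of ITGB1 at 24 h of ATRA reversed to -0.065 with equal array medians. Reversals among differences of other adhesion genes were of values near 0: CYFIP2 at 24 h of ATRA (-0.11 with the first array set alone, -0.17 to 0.29 with each sample left out, -0.049 without the samples of the second set alone, -0.10 with a term for the 4 samples, both of 9-cis RA 24 h and replicate 4 of ATRA at each time, that stood apart on the second principal component), JUP at 24 h of ATRA (-0.011 to 0.28 with each sample left out, lowest without ATRA 24 h replicate 1-2) and of 9-cis RA (-0.13 and -0.26 with other probes) and DSC2 at 48 h of 9-cis RA (-0.090 to 0.32, lowest without 9-cis RA 48 h replicate 1). The exception was ZYX at 24 h of 9-cis RA (-0.016 with another probe), which was called. Of 55 calls of those genes, 24 were kept under every alternative, among them all of SPP1, CCN3, COL9A1 and NRCAM. The cause of these shifts was not tested. No paired analysis was possible because no label pairs the samples of a retinoid group with those of EtOH.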
